A study of Mus musculus with 20 samples.

Results

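Whole tibialis anterior (TA) muscle of mdx mice, which degenerates slowly for want of dystrophin, was set beside TA muscle of C57BL/6J mice taken within a day of an acute injury. The comparison uses 6 of the 20 RNA-seq libraries of the series, 3 mdx and 3 injured, all from mice on control food. Every gene was ranked within its own library by FPKM (fragments per kilobase of transcript, scaled to the library's total), and its rank is the percent of ranked genes with a lower FPKM in that library. A gene was said to differ when all 3 ranks of one side lay above all 3 ranks of the other. Of 24313 genes present in both of the authors' tables, 1096 on the X and Y chromosomes were left out because the sexes differ, 11 more lacked a value in a library, 23206 were ranked, and the 10920 that averaged 1 FPKM or more across all 6 muscles were counted.

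The mdx libraries came from 8-month-old females that had eaten AIN-76A control food for 6 months. Replicates 1 and 2 carried the genotype DMDmdx:PDGFRaEGFP and replicate 3 was DMDmdx. The injured libraries came from C57BL/6J males that ate control food for 3 weeks, then regular food for 3 days, before the TA was damaged. Injured replicates 1 and 3 were taken 18 hours and replicate 2 was taken 12 hours after the damage. The labels do not state what damaged the muscle, how old these males were or the strain background of the mdx mice. The series also holds matching muscles of mice given PLX73086, an inhibitor of the macrophage growth factor receptor CSF1R, and sorted macrophages. The sides therefore differ in genotype, sex, feeding and experiment as well as in the kind of damage, and the 2 tables were normalised separately. They may also differ in age and strain background, and no uninjured muscle was analysed here. These differences cannot be told apart, no p-value was computed between the tables, and each difference below is between these 6 muscles. Values are listed in the order of replicates 1, 2 and 3.

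Dystrophin anchors the actin cytoskeleton of a muscle fibre, through a complex of membrane proteins, to the laminin around it, and a fibre without it tears, dies and regrows throughout life. Regrowing fibres fuse from satellite cells and pass through a stage in which they make embryonic and neonatal isoforms of contractile proteins. After a sudden injury the order is compressed: stress genes switch on within minutes, neutrophils arrive within hours, blood monocytes follow and become macrophages, and satellite cells divide and fuse only days later.

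Both sets of libraries were skeletal muscle by their defining markers, of which 7 of 7 were counted and none was near the floor of 0.01 FPKM that the tables use. Acta1, skeletal muscle actin, had 25276, 24049.5 and 26948 FPKM in mdx muscle and 14732, 18431 and 17853 FPKM in injured muscle. Dmd, which encodes dystrophin and lies on the X chromosome, had 2.64, 2.01 and 2.16 FPKM in mdx muscle and 3.52, 3.34 and 2.96 FPKM in injured muscle. The mdx allele is a point mutation that leaves the transcript in place, so this level does not check the genotype. Nnt, a mitochondrial transhydrogenase gene in which C57BL/6J mice carry a known deletion, had 42.8, 32.9 and 43 FPKM in mdx muscle and 4.21, 3.83 and 4.16 FPKM in injured muscle. The 10 most abundant genes took 32.6 to 33.9% of the summed FPKM of an mdx library and 19.2 to 22.4% of that of an injured library. Sequencing depth, read from the spacing of the lowest FPKM values, was 1.26 to 1.64 times that of injured replicate 1 in the mdx libraries and up to 1.13 times in the others. Across genes, Pearson r of log2 values was 0.972 to 0.986 within the mdx libraries, 0.971 to 0.985 within the injured ones and 0.720 to 0.802 between them. Genes are not independent replicates, and these are descriptions.

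Replicate 2 of the mdx muscles stood apart from its group. It held more RNA of macrophages and of regenerating fibres than replicates 1 and 3, and it also held Alb, the serum albumin of liver, at 2.63, 42.1 and 6.05 FPKM over the 3 mdx muscles, against the floor of 0.01 FPKM in all 3 injured muscles. For several lists, but not all that shift with it, the median rank difference is given with and without this replicate. In whole muscle, fewer cells of a type and less RNA per cell cannot be told apart.

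Ranks did not overlap for 8736 of the 10920 counted genes, or 80.0%. Of these, 4657 ranked higher in mdx muscle (42.6% of counted genes) and 4079 ranked higher in injured muscle (37.4%). That background is so high that a count of called genes says little by itself, and each gene list below is read against both shares, its median difference in rank and the FPKM of its members. The median gap between the nearest ranks of the called genes was 4.80 percentile points, 1270 had a gap under 1 point and 1904 had at least 10 points. On FPKM the balance was different: 216 called genes (1.98%) were at least 4-fold higher in mdx muscle and 1360 (12.5%) at least 4-fold higher in injured muscle, on means of FPKM + 1.

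The scale matters for direction. The median counted gene had a log2 ratio of mean FPKM + 1, mdx over injured, of -0.55, so a gene with equal FPKM in both tends to rank higher in mdx muscle. Of the genes ranked higher in mdx muscle, 1193 had a lower mean FPKM there, while 1 gene ranked higher in injured muscle had the opposite sign. When each gene was expressed as a share of its library's summed FPKM in place of a rank, 3208 genes (29.4%) were higher in mdx muscle and 5426 (49.7%) in injured muscle. Log2 ratios below are on FPKM + 1 and are to be read against -0.55.

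The same comparison could be made in other animals, the 3 mdx and 3 injured muscles of mice given PLX73086, where 77.8% of genes did not overlap (41.4% higher in mdx muscle, 36.4% higher in injured muscle). Of the 8736 genes called on control food, 8641 were also counted there, and 7463 of them (86.4%) were called the same way. Another 62 were called the opposite way and 1116 overlapped. Among the genes described below as different, Maf, Dysf, Cav3 and Des were called the opposite way, and Socs3, Amd2, Hk2, Ankrd1, Ankrd2, Csrp3, Flnc, Musk, Myf6, Mstn and Arntl overlapped. Tmem125, Orm1 and Fgb averaged below 1 FPKM in the muscles of PLX73086-fed mice and were not counted there. These muscles share strains, sexes and experiments with the control-food ones, and the inhibitor was eaten for 6 months by the mdx mice but was withdrawn before the injury in the others.

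**Figure D1:**
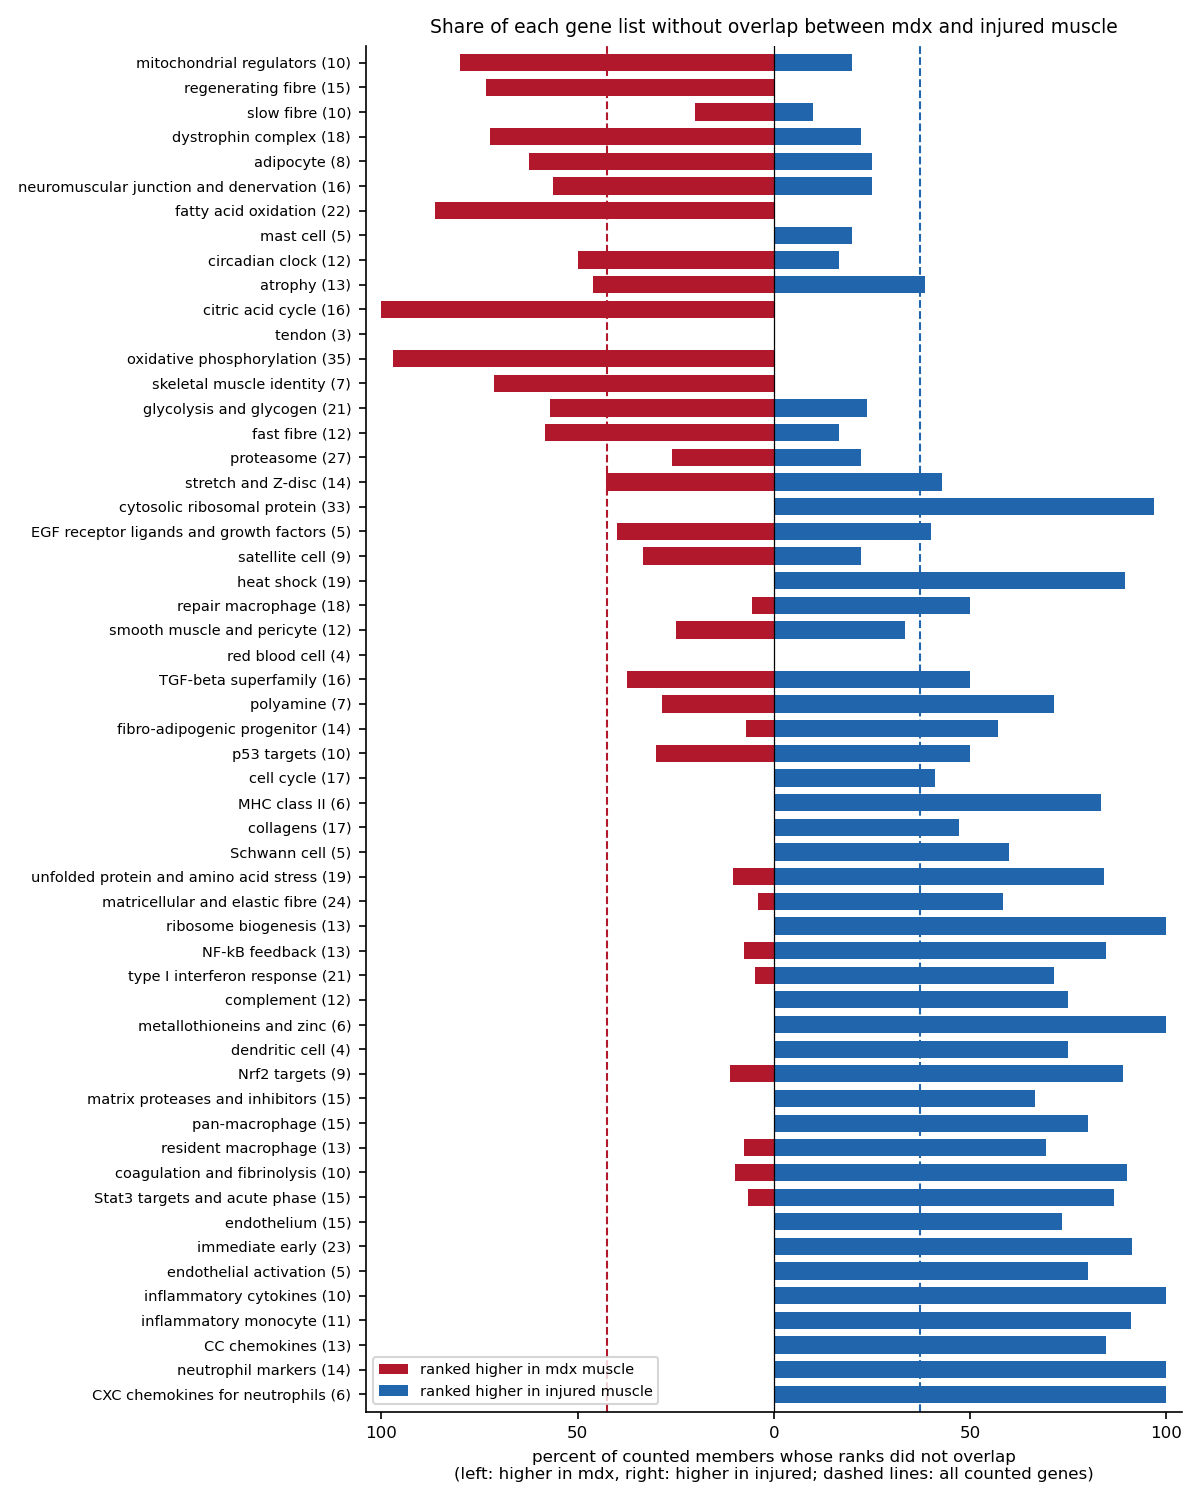
Each row is a gene list with its number of counted members in brackets, ordered by the median difference in rank (mdx minus injured). Bars give the percent of counted members whose ranks did not overlap, to the left for members higher in mdx muscle (red) and to the right for members higher in injured muscle (blue); dashed lines mark the shares over all counted genes, 42.6% and 37.4%. All 16 counted citric acid cycle genes lie to the left, and all 14 counted neutrophil markers and all 13 counted ribosome biogenesis genes lie to the right. Neutrophil markers scarce in mdx muscle were counted only through injured muscle.

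With predicted genes such as Gm7325, which is described further on, left out of the ordering, the widest gaps between ranks in favour of mdx muscle after Alb belonged to Ky, Cers1 and Cdkn2a, and Klf15 was among the 12 widest. Ky, a muscle protein needed for hypertrophic growth whose loss gives mice a bent spine, had 83, 67.2 and 53.5 FPKM in mdx muscle and 0.488, 1.17 and 0.367 FPKM in injured muscle. Cdkn2a, which encodes the cell cycle inhibitors p16INK4a and p19ARF, had 35.2, 22.6 and 43.8 FPKM in mdx muscle and 0.226, 0.306 and 1.03 FPKM in injured muscle. Klf15, a transcription factor that glucocorticoids induce in muscle and that drives amino acid and lipid use, had 24.2, 22 and 19.4 FPKM in mdx muscle and 1.28, 0.458 and 0.669 FPKM in injured muscle. In the authors' build, mm10, these genes lie at chr9:102506138-102546239, chr4:89274473-89294619 and chr6:90462626-90475209. The groups lay far apart for each, and the log2 ratios were 5.36, 4.52 and 3.67. Neu2, a cytosolic sialidase, gave 22.8, 19.4 and 26.2 FPKM in mdx muscle and 1.81, 2.41 and 0.743 FPKM in injured muscle. Cers1, a ceramide synthase prominent in muscle, gave 13.9, 11.3 and 9.44 FPKM in mdx muscle and 0.159, 0.203 and 0.111 FPKM in injured muscle. Pdpr, the regulatory subunit of pyruvate dehydrogenase phosphatase, gave 22.1, 10.8 and 11.8 FPKM in mdx muscle and 0.513, 0.686 and 0.383 FPKM in injured muscle. The lowest mdx value exceeded the highest injured value for each of these. Asb15, Kcnq5, Tmem233, Trim7 and Amd2 complete the 12 widest of these gaps, with log2 ratios between 3.04 and 4.40. Amd2, a copy of the gene for S-adenosylmethionine decarboxylase whose reads may be shared with Amd1, was called here but overlapped in the muscles of PLX73086-fed mice.

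On the other side, 6 of the 12 widest gaps were genes listed at the floor of 0.01 FPKM in all 3 mdx muscles, for which no ratio is given. Besides Cxcl3, described below, these included Stfa2l1, a stefin of neutrophils with near-identical copies, at 7.56, 16.6 and 6.02 FPKM in injured muscle, Tmem125 at 5.65, 6.12 and 5.18 FPKM, Tarm1 and Gsta1. In PLX73086-fed mice Tmem125 was below the filter, and the rank difference of Gsta1 was -22.2 points, against -67.6 points here. Slpi, a secreted inhibitor of neutrophil elastase, had 0.266, 0.55 and 0.429 FPKM in mdx muscle and 141, 92.4 and 255 FPKM in injured muscle. Sphk1, which makes the signalling lipid sphingosine 1-phosphate, had 0.227, 0.324 and 0.291 FPKM in mdx muscle and 69.6, 126 and 81.4 FPKM in injured muscle. Both were under 1 FPKM in every mdx muscle and far above it in every injured one, and Gprc5a and Eid3 had log2 ratios of -5.52 and -5.86.

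The list of CXC chemokines, chosen for neutrophils but also holding platelet chemokines such as Pf4, had the widest median rank difference of all lists. All 6 ranked higher in injured muscle, with a median rank difference of -45.3 points (mdx minus injured) against 0.273 over all counted genes, and with a median log2 ratio of -4.47. Cxcl1, a ligand of the neutrophil receptor Cxcr2, had 0.0803, 0.373 and 0.258 FPKM in mdx muscle and 18.4, 40.5 and 17.1 FPKM in injured muscle. Cxcl2 had 0.01, 0.0529 and 0.0549 FPKM in mdx muscle and 12.5, 27.3 and 8.82 FPKM in injured muscle. Cxcl3 was at the floor in all 3 mdx muscles and had 11.9, 37.9 and 16.8 FPKM in injured muscle. In each case the 12-hour muscle was the highest, and no mdx muscle exceeded 0.373 FPKM. These 3 genes were counted only through their injured values. Cxcl5 had 0.0416, 0.01 and 0.01 FPKM in mdx muscle and 58.9, 138 and 49.8 FPKM in injured muscle, again highest at 12 hours. Reads of Cxcl1, Cxcl2 and Cxcl3 may be shared in part because these neighbours on chromosome 5 resemble each other. Of the platelet chemokines on the list, Pf4 had 7.49, 43.5 and 17.1 FPKM in mdx muscle and 593, 331 and 849 FPKM in injured muscle. Macrophages also express Pf4.

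The promoters of 3 of these chemokines and of Il6 are shown because each holds a match to the binding site of the inflammatory factor NF-kB near the start of the gene. These are the 150 bases before the transcript start in RefSeq (build GRCm38.p6, 5′ to 3′ on the gene's strand), with the stretch matching the κB consensus in capitals. They lie at chr5:90891095-90891244, chr5:90903749-90903898, chr5:90785951-90786100 and chr5:30012964-30013113, all on the + strand.
Cxcl1: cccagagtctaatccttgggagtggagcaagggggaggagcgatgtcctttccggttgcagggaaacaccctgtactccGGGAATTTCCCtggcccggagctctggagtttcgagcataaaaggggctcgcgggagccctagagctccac
Cxcl2: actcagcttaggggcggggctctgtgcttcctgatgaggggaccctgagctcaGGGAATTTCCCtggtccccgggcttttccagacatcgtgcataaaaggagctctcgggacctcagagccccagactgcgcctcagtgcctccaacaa
Cxcl3: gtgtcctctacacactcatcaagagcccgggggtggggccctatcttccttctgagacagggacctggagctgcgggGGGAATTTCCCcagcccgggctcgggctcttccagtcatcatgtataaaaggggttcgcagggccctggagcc
Il6: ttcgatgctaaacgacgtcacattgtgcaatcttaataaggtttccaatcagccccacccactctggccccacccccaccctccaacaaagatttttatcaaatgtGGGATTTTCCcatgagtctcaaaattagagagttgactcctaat
The first capital stands 71 bases before the start of Cxcl1, 97 before that of Cxcl2, 73 before that of Cxcl3 and 44 before that of Il6. The same 11 letters occur in the 3 chemokine promoters. Searched on both strands with overlapping matches joined, the κB consensus was found in 611 of 27018 windows of this length (2.26%). A match describes the letters, and binding was not measured.

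Markers of neutrophils themselves went the same way as the chemokines. Of 21 listed, 14 were counted and 6 fell below the filter. All 14 ranked higher in injured muscle, and the median log2 ratio was -3.98. S100a8, S100a9, Cxcr2 and Csf3r averaged under 1 FPKM in mdx muscle and were counted only through injured muscle. The direction of their mean FPKM was therefore set by the filter. S100a8, a subunit of the calcium-binding alarmin calprotectin, had 1.19, 0.461 and 0.244 FPKM in mdx muscle and 301, 419.9 and 303 FPKM in injured muscle. S100a9, the other subunit, had 0.735, 0.284 and 1.48 FPKM in mdx muscle and 199, 393 and 251 FPKM in injured muscle. Cxcr2, the receptor of Cxcl1, had 0.0214, 0.01 and 0.0171 FPKM in mdx muscle and 10.2, 18.2 and 9.1 FPKM in injured muscle. Each was highest in the 12-hour muscle, and no mdx muscle exceeded 1.48 FPKM for any of them. Csf3r, the receptor for granulocyte colony-stimulating factor, had 0.195, 0.776 and 0.117 FPKM in mdx muscle and 19.8, 26.1 and 19.5 FPKM in injured muscle. Genes of immature granulocytes were scarce on both sides: Mpo and Elane, of the primary granules, did not exceed 0.0629 FPKM in any of the 6 muscles, and Ngp, Camp and Ltf were at the floor in all 3 mdx muscles and between 0.14 and 1.44 FPKM in injured muscle.

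Chemokines for monocytes and other cells were counted for 13 of 13 listed genes, and 11 ranked higher in injured muscle while 2, Ccl5 and Ccl11, overlapped. Ccl2, the main recruiter of inflammatory monocytes, had 0.692, 3.06 and 2.55 FPKM in mdx muscle and 512, 754 and 835 FPKM in injured muscle. Ccl7, which binds the same receptor, had 0.2, 1.47 and 1.45 FPKM in mdx muscle and 642, 715 and 934 FPKM in injured muscle. Ccl12 had 0.176, 0.544 and 0.01 FPKM in mdx muscle and 109.7, 99 and 173 FPKM in injured muscle. The log2 ratios of the 3 were -7.82, -8.55 and -6.69. Ccl6 and Ccl9, made by myeloid cells, had log2 ratios of -7.18 and -6.41. Ccl11, or eotaxin, which draws eosinophils, had 8.9, 8.88 and 14.1 FPKM in mdx muscle and 13.4, 36.4 and 13.9 FPKM in injured muscle. Its groups nearly met in FPKM and overlapped in rank.

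Monocyte genes followed. All but Msrb1 of the 11 counted inflammatory monocyte genes ranked higher in injured muscle, with a median log2 ratio of -3.61. Their median rank difference was -28 points, or -31.3 without mdx replicate 2. Ccr2, the receptor for Ccl2, had 1.31, 5.08 and 2.37 FPKM in mdx muscle and 62.3, 99 and 67.7 FPKM in injured muscle. Chil3, a chitinase-like protein of monocytes, had 0.01, 2.59 and 0.327 FPKM in mdx muscle and 94.4, 69.8 and 123 FPKM in injured muscle. Ly6c2, the surface marker of inflammatory monocytes, had 0.199, 0.772 and 0.804 FPKM in mdx muscle and 12.3, 25.6 and 15.7 FPKM in injured muscle. No mdx muscle reached an injured one for any of these, and mdx replicate 2 had the highest mdx level of Ccr2 and Chil3.

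Of 16 inflammatory cytokine genes 10 were counted, and 6 fell below the filter. All 10 ranked higher in injured muscle, with a median log2 ratio of -2.32. Il6, Il1b and Tnf were under 1 FPKM in every mdx muscle and were counted only through injured muscle. The direction of their mean FPKM was therefore set by the filter. Il6, a cytokine also released by working muscle, had 0.136, 0.263 and 0.109 FPKM in mdx muscle and 2.52, 8.63 and 1.89 FPKM in injured muscle. Il1b had 0.107, 0.208 and 0.172 FPKM in mdx muscle and 7.75, 42 and 6.68 FPKM in injured muscle. Tnf had 0.01, 0.134 and 0.0692 FPKM in mdx muscle and 2.77, 7.02 and 3.03 FPKM in injured muscle. For Il6 and Il1b the 12-hour muscle was more than 3 times either 18-hour muscle. Csf1, the growth factor of macrophages and ligand of CSF1R, had 1.56, 2.03 and 2.17 FPKM in mdx muscle and 47.4, 56.4 and 55.8 FPKM in injured muscle, with close values in all 3 injured muscles.

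Transcripts that cytokines induce were higher in injured muscle too. Among Stat3 targets and acute phase genes, 13 of 15 counted genes ranked higher in injured muscle. Socs3, the feedback inhibitor of Stat3 signalling, had 2.14, 3.9 and 1.93 FPKM in mdx muscle and 35.5, 60.6 and 29.4 FPKM in injured muscle. The ranks of Socs3 overlapped in PLX73086-fed mice. Saa3, a serum amyloid made outside the liver, had 0.01, 0.138 and 0.434 FPKM in mdx muscle and 47.1, 102 and 49.6 FPKM in injured muscle. The exception was Orm1, an acute phase protein of liver, which ranked higher in mdx muscle at 0.632, 2.94 and 1.27 FPKM against 0.511, 0.58 and 0.506 FPKM in injured muscle. Its highest value was in mdx replicate 2, the library with the most Alb. Of 13 counted NF-kB feedback genes, 11 ranked higher in injured muscle, among them Nfkbia, the inhibitor that NF-kB induces against itself, at 13.9, 16.1 and 22.1 FPKM in mdx muscle and 134, 222 and 126 FPKM in injured muscle. Tnip1, which restrains the pathway with Tnfaip3, ranked the other way, at 32.7, 29.5 and 31.7 FPKM in mdx muscle and 12, 16.7 and 10.6 FPKM in injured muscle.

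Macrophage genes were higher in injured muscle, but the distance depended on which mdx muscle was taken. Of 15 counted general macrophage genes, 12 ranked higher in injured muscle and 3 overlapped, with a median rank difference of -15.5 points, or -21.3 without mdx replicate 2. Csf1r, the receptor that PLX73086 inhibits, had 2.37, 16.3 and 4.38 FPKM in mdx muscle and 30.1, 31 and 33.4 FPKM in injured muscle. Adgre1, which encodes the F4/80 antigen, had 0.779, 7.94 and 2.11 FPKM in mdx muscle and 16.4, 14.8 and 23.6 FPKM in injured muscle. Itgam, the CD11b integrin that neutrophils and monocytes share with macrophages, had 0.245, 3.09 and 1.24 FPKM in mdx muscle and 45.6, 55.4 and 55.4 FPKM in injured muscle. Replicate 2 was the highest mdx muscle for all 3, and for Csf1r its rank came within 1.5 points of the lowest injured muscle. Ctss, a lysosomal protease of macrophages, overlapped, at 10.2, 210.4 and 37.8 FPKM in mdx muscle and 254, 266 and 294 FPKM in injured muscle.

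Genes of tissue-resident macrophages ranked mostly higher in injured muscle. Of 13 counted, 9 ranked higher in injured muscle, 3 overlapped and 1 ranked higher in mdx muscle, with a median rank difference of -15.6 points, or -19.3 without mdx replicate 2. Mrc1, the mannose receptor CD206, had 1.31, 2.84 and 2.56 FPKM in mdx muscle and 61.6, 46.1 and 73.2 FPKM in injured muscle. Cd163, the haptoglobin-haemoglobin receptor, had 0.315, 0.313 and 0.266 FPKM in mdx muscle and 16.1, 6.1 and 20.6 FPKM in injured muscle. F13a1, the clotting factor XIII subunit of these macrophages, had 1.69, 1.95 and 2.12 FPKM in mdx muscle and 78.8, 44.5 and 83.8 FPKM in injured muscle. For these, mdx replicate 2 did not stand apart, and the 12-hour muscle was the lowest injured one. Sepp1, which encodes the selenium carrier selenoprotein P, overlapped at 102, 189.6 and 104 FPKM in mdx muscle and 110.0, 67.1 and 157 FPKM in injured muscle. Maf, which fibres also express, ranked higher in mdx muscle at 80.5, 68.4 and 56.2 FPKM, against 48.2, 50.1 and 52.7 FPKM in injured muscle, but in PLX73086-fed mice it was called the other way (rank difference 3.41 points here and -1.62 points there).

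Genes of lipid-laden repair macrophages were the least separated of the macrophage lists. Of 18, 9 ranked higher in injured muscle (50%, against 37.4% of all genes), 8 overlapped and Abca1 ranked higher in mdx muscle. The median rank difference was -2.47 points, or -6.72 without mdx replicate 2 and -1.12 without injured replicate 3. Spp1, the matrix cytokine osteopontin, had 12, 71 and 20.7 FPKM in mdx muscle and 410.1, 363 and 699.8 FPKM in injured muscle. Arg1, arginase 1, had 0.0947, 1.4 and 0.152 FPKM in mdx muscle and 96.7, 79.7 and 119.9 FPKM in injured muscle. Gpnmb, a glycoprotein of phagocytes filled with lipid, had 1.72, 44.5 and 6.9 FPKM in mdx muscle and 17.9, 7.74 and 20.04 FPKM in injured muscle. Spp1 and Arg1 were far apart between the groups, whereas Gpnmb in mdx replicate 2 exceeded every injured muscle. Apoe, a lipid carrier, did so as well, at 61, 586 and 131 FPKM in mdx muscle and 414, 345 and 503 FPKM in injured muscle. Abca1, a cholesterol exporter, had 3.58, 4.68 and 2.46 FPKM in mdx muscle and 0.791, 1.01 and 1.02 FPKM in injured muscle.

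**Figure D2:**
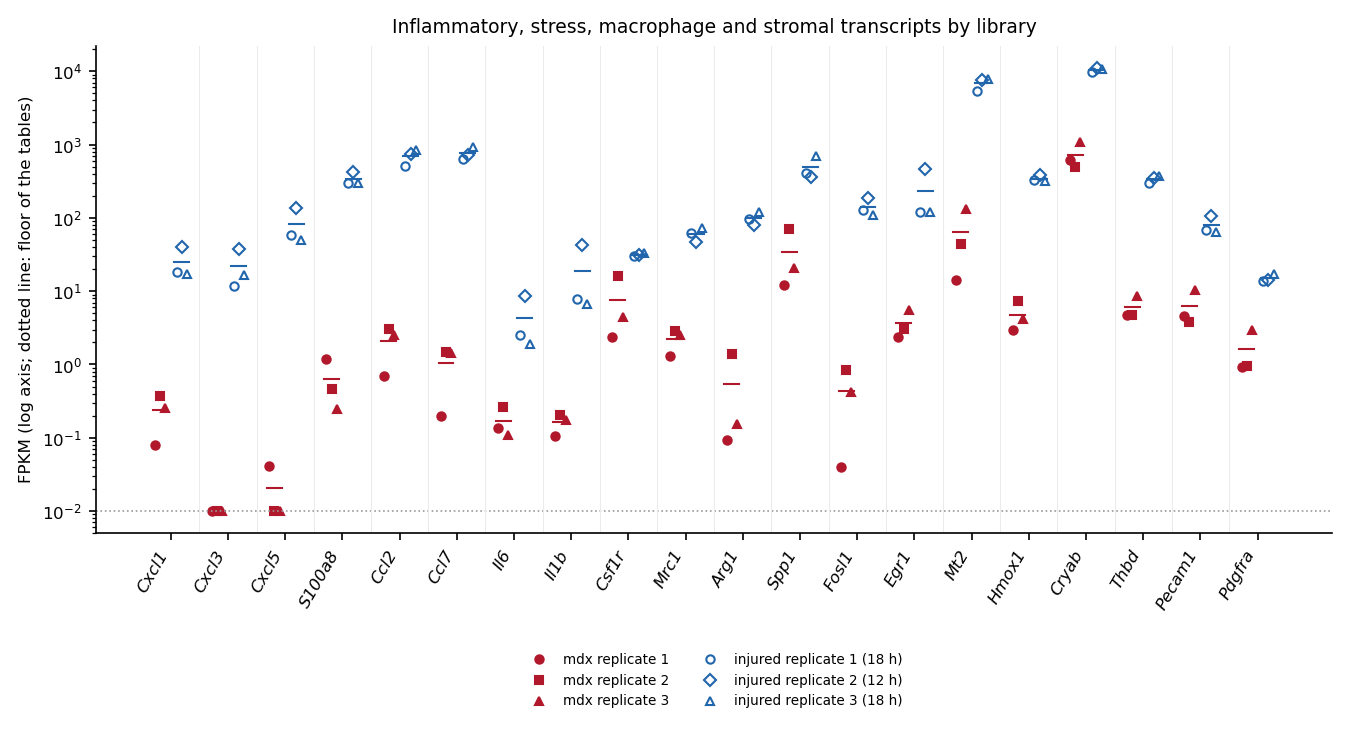
FPKM on a log axis of transcripts of inflammation, stress, macrophages and stroma in each of the 6 muscles, with mdx muscles (filled, red) left of injured muscles (open, blue) and a short bar at each group mean; the dotted line is the floor of 0.01 FPKM. The squares (mdx replicate 2) rise above the other mdx muscles for Csf1r, Arg1 and Spp1, and the diamonds (the 12-hour muscle) lead the injured muscles for Cxcl1, Cxcl5, Il6, Il1b and Egr1.

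Antigen presentation and lymphoid genes gave smaller contrasts. Of 6 counted MHC class II genes, 5 ranked higher in injured muscle, and Cd74, the invariant chain, had 44.1, 129.9 and 67.3 FPKM in mdx muscle and 246, 507 and 304 FPKM in injured muscle. Of 9 dendritic cell genes, 4 were counted and 3 ranked higher in injured muscle (75%, against 37.4% of all genes, in a short list). Lymphocyte genes were too low to compare: 1 of 20 T and NK cell genes passed 1 FPKM, and Cd3e did not exceed 0.165 FPKM in any muscle. Among B and plasma cell genes 1 of 7 was counted, and among eosinophil and type 2 genes 1 of 10. That last gene, Il1rl1, the receptor for interleukin 33, had 0.0955, 0.148 and 0.321 FPKM in mdx muscle and 9.38, 13 and 18.3 FPKM in injured muscle. Mast cell proteases did not separate the groups, and Mcpt4 had 2.51, 3.48 and 5.88 FPKM in mdx muscle and 4.88, 5.33 and 9.1 FPKM in injured muscle. The mast cell list had a median rank difference of 3.61 points and a median log2 ratio of -0.33, opposite in sign, and 4 of its 5 counted members overlapped. That rank difference was 1.35 points without the 12-hour muscle and 6.57 points without injured replicate 3.

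Interferon, complement and clotting genes ranked mostly higher in injured muscle. Of 21 counted interferon response genes, 15 did so and 5 overlapped, with a median rank difference of -9.74 points, or -11.8 without mdx replicate 2. Isg15, a ubiquitin-like protein that interferon induces, had 2.69, 6.25 and 4.25 FPKM in mdx muscle and 34.7, 50.3 and 22.6 FPKM in injured muscle. Of 12 counted complement genes, 9 ranked higher in injured muscle, and C5ar1, the receptor for the chemoattractant C5a, had 0.319, 1.16 and 0.832 FPKM in mdx muscle and 54.2, 66.6 and 62.4 FPKM in injured muscle. Of 10 counted clotting genes, 9 ranked higher in injured muscle. Thbd, the endothelial anticoagulant thrombomodulin, had 4.79, 4.72 and 8.7 FPKM in mdx muscle and 302, 345 and 374 FPKM in injured muscle. Fgb, the fibrinogen beta chain made in liver, ranked higher in mdx muscle at 0.617, 5.3 and 0.566 FPKM, against 0.01, 0.0495 and 0.01 FPKM in injured muscle, with its highest value in the same library as Alb.

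Immediate early genes ranked mostly higher in injured muscle. Of 23 counted immediate early genes, 21 ranked higher in injured muscle, none ranked higher in mdx muscle, and the median log2 ratio was -3.18. Fosl1, an AP-1 subunit, had 0.0402, 0.842 and 0.42 FPKM in mdx muscle and 129.7, 187 and 111 FPKM in injured muscle. Egr1, a zinc-finger factor induced by growth signals, had 2.39, 3.09 and 5.46 FPKM in mdx muscle and 121, 457 and 121 FPKM in injured muscle. Atf3, a stress-induced leucine zipper factor, had 1.98, 3.52 and 2.9 FPKM in mdx muscle and 143, 243 and 134 FPKM in injured muscle. The 12-hour muscle was the highest for all 3, and for Egr1 by more than 3 times. Myc, which drives growth, had 1.05, 2.12 and 1.62 FPKM in mdx muscle and 67.6, 67.7 and 65.6 FPKM in injured muscle, with nearly equal values in the injured muscles. Jun and Nr4a1 overlapped, and Jun had 42, 36.1 and 41.2 FPKM in mdx muscle and 50.02, 73 and 41.5 FPKM in injured muscle.

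Chaperones differed more in FPKM than in rank, and many were abundant on both sides. Of 19 counted heat shock genes, 17 ranked higher in injured muscle with a median rank difference of -2.37 points and a median log2 ratio of -1.95. Cryab, a small chaperone of the Z-disc, had 608, 495 and 1089 FPKM in mdx muscle and 9678, 11178 and 10792 FPKM in injured muscle. Hspb1, another small chaperone, had 78.3, 72.3 and 126 FPKM in mdx muscle and 864, 1502 and 1099.9 FPKM in injured muscle. Hspa1a, the inducible chaperone whose copy Hspa1b may share its reads, had 0.702, 0.635 and 0.694 FPKM in mdx muscle and 4.12, 6.88 and 25 FPKM in injured muscle. Its injured values spread widely, and injured replicate 3 was the highest. Genes of the unfolded protein and amino acid stress responses ranked higher in injured muscle in 16 of 19 cases. Gdf15, a circulating stress signal, had 0.0682, 1.22 and 0.164 FPKM in mdx muscle and 113, 62.5 and 111 FPKM in injured muscle. Atf4, the central factor of that response, had 106, 105 and 122 FPKM in mdx muscle and 958, 1161 and 910.3 FPKM in injured muscle. Chac1, a target of Atf4 that degrades glutathione, ranked higher in mdx muscle at 16.3, 23.6 and 36.2 FPKM, against 18.7, 20.1 and 10.5 FPKM in injured muscle, and its FPKM values overlapped.

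The list of metallothioneins, small proteins that bind zinc and copper, and of zinc transporters gave the largest median log2 ratio of any list in favour of injured muscle, -5.03 over 6 genes that all ranked higher there. Mt1 had 21.4, 44 and 107 FPKM in mdx muscle and 4356, 5526 and 7005 FPKM in injured muscle. Mt2 had 14.1, 44.2 and 132 FPKM in mdx muscle and 5383, 7568 and 7846 FPKM in injured muscle. Slc39a14, a zinc importer, had 2.43, 2.27 and 2.23 FPKM in mdx muscle and 33.1, 39.9 and 33.8 FPKM in injured muscle. Among the mdx muscles replicate 3 had the most Mt1 and Mt2, yet it stayed far below every injured muscle. Mt1 and Mt2 are neighbours of like sequence and may share reads.

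Both promoters are shown because metallothionein genes are known for metal response elements, to which the zinc sensor Mtf1 binds. They are the 150 bases before the RefSeq transcript start (GRCm38.p6, + strand), at chr8:94178939-94179088 and chr8:94172468-94172617, with capitals where the core of the element matches on either strand.
Mt1: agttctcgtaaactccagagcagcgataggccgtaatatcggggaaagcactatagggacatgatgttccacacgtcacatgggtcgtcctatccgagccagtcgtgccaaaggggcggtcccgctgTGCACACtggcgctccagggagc
Mt2: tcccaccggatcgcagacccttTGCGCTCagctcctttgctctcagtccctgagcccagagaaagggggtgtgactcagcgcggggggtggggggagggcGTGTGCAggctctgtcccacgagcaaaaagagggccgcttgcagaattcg
The match in Mt1 begins 23 bases before the start, and those in Mt2 begin 128 and 50 bases before it. The core, searched as TGCGCNC and TGCACNC on both strands, was found in 3974 of 27018 windows (14.7%), so it is common, and these letters alone set neither gene apart.

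Antioxidant and polyamine genes ranked mainly higher in injured muscle, and p53 targets were divided. Of 9 counted targets of the oxidant sensor Nrf2, 8 ranked higher in injured muscle. Hmox1, the haem-degrading enzyme haem oxygenase 1, had 2.95, 7.3 and 4.17 FPKM in mdx muscle and 328, 379 and 323 FPKM in injured muscle. Srxn1, which repairs oxidised peroxiredoxins, had 9.35, 9.13 and 11.5 FPKM in mdx muscle and 338, 470.2 and 349 FPKM in injured muscle. Nqo1 ranked higher in mdx muscle with overlapping FPKM, at 19.3, 14.7 and 13 FPKM in mdx muscle and 19.2, 15.7 and 10.04 FPKM in injured muscle. The p53 targets divided into 3 higher in mdx muscle and 5 higher in injured muscle of 10 counted. These shares were 30% and 50%, against 42.6% and 37.4% of all genes. Cdkn1a, the cell cycle inhibitor p21, had 24.7, 66.9 and 47.5 FPKM in mdx muscle and 710.4, 904 and 716 FPKM in injured muscle. Ccng1, cyclin G1, had 296, 224 and 199 FPKM in mdx muscle and 95.2, 91.7 and 111 FPKM in injured muscle. The cell cycle inhibitors thus stood apart in opposite directions, with Cdkn1a higher in injured muscle and Cdkn2a higher in mdx muscle. Of 7 counted polyamine genes, 5 ranked higher in injured muscle, and Odc1, the rate-limiting enzyme, had 26.3, 29.7 and 33.4 FPKM in mdx muscle and 560.4, 532 and 832 FPKM in injured muscle. In PLX73086-fed mice 2 of the polyamine genes ranked higher in injured muscle.

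Genes for making ribosomes were higher in injured muscle almost without exception. All 13 counted ribosome biogenesis genes ranked higher there, and Fbl, the enzyme fibrillarin that methylates ribosomal RNA, had 7.04, 12.6 and 8.65 FPKM in mdx muscle and 76.7, 78.3 and 92.3 FPKM in injured muscle. Of 33 ribosomal protein genes, 32 ranked higher in injured muscle and Rpl4 overlapped. Their median rank difference was only -0.789 points while the median log2 ratio was -1.81. Their ranks lay near the top of every library, where a change in FPKM moves a rank little. Rpl3, which striated muscle replaces with Rpl3l, had 12, 43.5 and 22.4 FPKM in mdx muscle and 222, 203 and 244 FPKM in injured muscle. Proteasome subunits leaned neither way: 7 ranked higher in mdx muscle, 6 in injured muscle (3 in PLX73086-fed mice) and 14 overlapped, and the median log2 ratio of -0.58 was near that of all genes.

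In mdx muscle the regenerating-fibre genes were higher. Of 15 counted, 11 ranked higher in mdx muscle, 0 ranked higher in injured muscle and 4 overlapped, with a median rank difference of 14.5 points, or 12.4 without mdx replicate 2. Myh3, the embryonic myosin heavy chain, had 3.18, 34.6 and 3.55 FPKM in mdx muscle and 0.376, 0.418 and 0.371 FPKM in injured muscle. Myh8, the neonatal one, had 5.54, 5.6 and 5.13 FPKM in mdx muscle and 0.457, 0.407 and 0.15 FPKM in injured muscle. Myl4, the embryonic and atrial essential light chain, had 98.5, 148 and 95.7 FPKM in mdx muscle and 10.2, 12.8 and 10.3 FPKM in injured muscle. Myh3 was about 10 times higher in replicate 2 than in the other mdx muscles, whereas Myh8 was almost equal in all 3, and no injured muscle reached 1 FPKM of either. The fusion proteins behaved like Myh3. Tmem8c, which encodes myomaker, had 2.6, 34.8 and 2.92 FPKM in mdx muscle and 0.0741, 0.2 and 0.01 FPKM in injured muscle. Gm7325, which encodes myomixer, had 0.887, 29.97 and 1.78 FPKM in mdx muscle and stood at the floor in all 3 injured muscles. Igf2, a fetal growth factor, had 17.7, 33.5 and 19.8 FPKM in mdx muscle and 4.81, 5.85 and 4.56 FPKM in injured muscle. H19, the non-coding RNA transcribed beside Igf2, had 678, 525 and 634 FPKM in mdx muscle and 100.2, 85.9 and 98.2 FPKM in injured muscle, and replicate 2 was its lowest mdx muscle.

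The myogenic regulators did not follow the structural genes. Myog, which drives differentiation, had 5.39, 109.8 and 12.4 FPKM in mdx muscle and 11.9, 56.7 and 8.13 FPKM in injured muscle. Myod1, which commits satellite cells, had 25.1, 56 and 19.8 FPKM in mdx muscle and 65.1, 321 and 46.3 FPKM in injured muscle. Both overlapped, with the highest values in mdx replicate 2 for Myog and in the 12-hour muscle for Myod1. Myf6, the factor of adult fibres, had 79.97, 71.2 and 89.4 FPKM in mdx muscle and 297, 520.0 and 269 FPKM in injured muscle and ranked higher in injured muscle, but overlapped in PLX73086-fed mice. Pax7, which marks quiescent satellite cells, was below the filter at 0.463, 0.521 and 0.335 FPKM in mdx muscle and 0.152, 0.0847 and 0.0909 FPKM in injured muscle. Of 15 satellite cell genes, 9 were counted, 3 ranked higher in mdx muscle and 2 in injured muscle. The shares were 33.3% and 22.2%, against 42.6% and 37.4% of all genes. Sdc4, a matrix receptor of satellite and many other cells, had 11.4, 12.9 and 12.4 FPKM in mdx muscle and 123, 234 and 122 FPKM in injured muscle.

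Most proliferation genes overlapped. Of 17 counted, 7 ranked higher in injured muscle, a share near the 37.4% of all genes. The list differed from all genes otherwise: 0 ranked higher in mdx muscle, against 42.6%, and 10 overlapped, against 2184 of all 10920. Mcm6, of the helicase that opens DNA for replication, had 0.382, 2.25 and 0.974 FPKM in mdx muscle and 13.2, 8.93 and 20.7 FPKM in injured muscle. Top2a, which untangles chromosomes at division, had 0.133, 2.36 and 0.486 FPKM in mdx muscle and 1.35, 0.537 and 4.18 FPKM in injured muscle. Mcm3 to Mcm7 and Pcna did not overlap, whereas Top2a, Cdk1 and the mitotic cyclins did, with mdx replicate 2 and injured replicate 3 high in their groups. The list's median rank difference was -4.55 points, and it lay between -9.09 without mdx replicate 2 and 0.172 without injured replicate 3 when each library was left out in turn.

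Of 16 genes of the neuromuscular junction, 9 ranked higher in mdx muscle and 4 in injured muscle (2 in PLX73086-fed mice). These shares were 56.3% and 25%, against 42.6% and 37.4% of all genes, a small excess in a short list. Chrne, the adult subunit of the acetylcholine receptor, had 12.3, 12 and 10.03 FPKM in mdx muscle and 2.29, 4.4 and 1.79 FPKM in injured muscle. Colq, which anchors acetylcholinesterase, had 3.8, 3 and 3.94 FPKM in mdx muscle and 0.234, 0.417 and 0.14 FPKM in injured muscle. Chrna1, the receptor's alpha subunit, had 8.45, 24.5 and 12.7 FPKM in mdx muscle and 3.05, 3.74 and 2.55 FPKM in injured muscle. The groups did not overlap for these, and replicate 2 stood out for Chrna1 alone. Runx1, which denervation induces in fibres and which blood cells also express, had 1.74, 3.92 and 1.92 FPKM in mdx muscle and 42.3, 75.7 and 34.7 FPKM in injured muscle. Musk, the receptor kinase that builds the junction, was likewise higher in injured muscle, with a log2 ratio of -1.75, and overlapped in PLX73086-fed mice.

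The promoter of Chrna1 is shown because it is known for E-boxes, the sites of the myogenic factors, of which Myod1 and Myog overlapped here while Chrna1 did not. It is the 150 bases before the RefSeq start (GRCm38.p6, - strand, chr2:73580339-73580488), with CANNTG in capitals.
Chrna1: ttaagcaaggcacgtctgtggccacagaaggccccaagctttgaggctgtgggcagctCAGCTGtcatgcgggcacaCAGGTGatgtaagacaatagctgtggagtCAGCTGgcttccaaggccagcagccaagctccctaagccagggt
The 3 E-boxes begin 92, 73 and 44 bases before the start. CANNTG was found in 12802 of 27018 windows (47.4%), and the longer CAGCTG, which 2 of these 3 carry, in 8.21%.

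Genes of the dystrophin complex list, which leaves out dystrophin here and also holds Itgb1, Dysf and Cav3, ranked mainly higher in mdx muscle. Of 18 counted genes, 13 did so (72.2%, against 42.6% of all genes) and 4 ranked higher in injured muscle (2 in PLX73086-fed mice). On control food those 4 were Sntb2, Itgb1, Dysf and Cav3, and the list's median log2 ratio was 0.69. Dag1, the laminin receptor dystroglycan, had 68.3, 58.4 and 61 FPKM in mdx muscle and 20.6, 16.7 and 14 FPKM in injured muscle. Nos1, the nitric oxide synthase that dystrophin normally holds at the membrane, had 20.5, 14.1 and 25 FPKM in mdx muscle and 4.98, 6.59 and 2.86 FPKM in injured muscle. None of these overlapped. Utrn, which encodes utrophin, the relative of dystrophin that can stand in for it, overlapped in rank, although its FPKM did not, at 1.59, 1.54 and 1.82 FPKM in mdx muscle and 2.76, 3.3 and 2.44 FPKM in injured muscle. Itgb1, the beta subunit of the alternative laminin receptor and of integrins in many other cells, ranked higher in injured muscle, at 61.7, 65.3 and 69.4 FPKM in mdx muscle and 257, 271 and 232 FPKM in injured muscle. The membrane repair genes Dysf and Cav3 did too, with log2 ratios of -1.27 and -1.94, but their rank differences of -4.64 and -2.56 points were 3.94 and 1.4 points in PLX73086-fed mice, where both were called higher in mdx muscle.

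Contractile genes filled the top of every library, where ranks move little. Of 12 counted fast-fibre genes, 7 ranked higher in mdx muscle (58.3%, against 42.6% of all genes) and 2 in injured muscle. The median rank difference was 0.0187 points with a median log2 ratio of 0.86. Mylpf, the fast regulatory light chain, had 20002, 19620.1 and 20166 FPKM in mdx muscle and 7852, 8798 and 9855 FPKM in injured muscle. Myh4, the most abundant fast myosin, had no value in mdx replicates 1 and 2 and was not ranked. Slow-fibre genes were more variable, and 7 of 10 overlapped. Tnni1, slow troponin I, had 17.7, 65.1 and 14.6 FPKM in mdx muscle and 2.69, 6.14 and 0.986 FPKM in injured muscle, with the 12-hour muscle highest among the injured and mdx replicate 2 highest of all.

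Stretch and Z-disc genes split evenly, 6 higher in mdx muscle and 6 higher in injured muscle of 14, near the shares of all genes. In PLX73086-fed mice 7 were called higher in mdx muscle but only 1 was higher in injured muscle, and the median rank difference was 1.75 points, against -0.0826 on control food. On control food the 6 higher in injured muscle were Ankrd1, Ankrd2, Csrp3, Xirp1, Flnc and Des. Xirp1, a protein of damaged Z-discs, had 21.2, 15.6 and 27 FPKM in mdx muscle and 463, 762 and 432 FPKM in injured muscle. Flnc, filamin C, had 79.4, 58.7 and 125 FPKM in mdx muscle and 680.1, 770.0 and 529 FPKM in injured muscle. Ldb3, a Z-disc scaffold, had 1127, 935 and 1419 FPKM in mdx muscle and 289, 399 and 311 FPKM in injured muscle. Of those 6, Xirp1 alone was also called higher in injured muscle in PLX73086-fed mice. Actc1, the cardiac actin also made by young fibres, overlapped at 192, 278 and 140.0 FPKM in mdx muscle and 164, 383 and 765 FPKM in injured muscle.

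Genes of oxidative metabolism ranked higher in mdx muscle. All 16 counted citric acid cycle genes did so, as did 34 of 35 oxidative phosphorylation genes and 19 of 22 genes of fatty acid use, with none ranked higher in injured muscle in these 3 lists. The differences were modest, with median log2 ratios of 1.21, 0.57 and 0.87. Median rank differences were 1.85, 0.599 and 4.17 points, against 0.273 over all counted genes. Oxidative phosphorylation genes had median ranks near 99 in every library, where ranks move little. Sdha, succinate dehydrogenase, had 569, 467 and 546 FPKM in mdx muscle and 181, 204 and 163 FPKM in injured muscle. Ucp3, an uncoupling protein of muscle mitochondria, had 26.4, 32.8 and 72.1 FPKM in mdx muscle and 4.78, 5.31 and 4.2 FPKM in injured muscle. Ndufa2, a complex I subunit, had 430.0, 449 and 468 FPKM in mdx muscle and 483, 612 and 561 FPKM in injured muscle. Sdha and Ucp3 were higher in mdx muscle on either scale, whereas Ndufa2 ranked higher in mdx muscle with a lower FPKM there.

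Regulators of mitochondria moved with these genes, 8 of 10 ranking higher in mdx muscle by a median of 14.7 points. Ppara, a fatty acid receptor that switches on fat burning, had 3.51, 2.91 and 1.99 FPKM in mdx muscle and 0.322, 0.385 and 0.138 FPKM in injured muscle. Ppargc1a, the coactivator PGC-1alpha, had 7.07, 5.42 and 6.46 FPKM in mdx muscle and 2.79, 3.75 and 1.86 FPKM in injured muscle. Ppard, a related receptor, went the other way, at 11.3, 9.48 and 9.35 FPKM in mdx muscle and 76.7, 80.4 and 73.2 FPKM in injured muscle. Nrf1 was also higher in injured muscle.

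Glycolysis and glycogen genes were divided. Of 21 counted genes, 12 ranked higher in mdx muscle (57.1%, against 42.6% of all genes) and 5 in injured muscle (23.8%, against 37.4%). Slc2a4, the insulin-regulated glucose carrier GLUT4 of fibres, had 306, 238 and 271 FPKM in mdx muscle and 46.9, 70.1 and 31.9 FPKM in injured muscle. Slc2a1, the general carrier GLUT1, had 4.25, 4.13 and 2.67 FPKM in mdx muscle and 46.8, 40.5 and 34 FPKM in injured muscle. Hk1, a hexokinase of most tissues, had 2.15, 2.95 and 3.23 FPKM in mdx muscle and 27, 22.5 and 26.7 FPKM in injured muscle. The 5 genes higher in injured muscle were Hk1, Hk2, Pfkp, Pgam1 and Slc2a1, and the 12 higher in mdx muscle included Slc2a4, Gys1, Pygm, Pgam2 and Eno3. Pgam1 and Gapdh have many processed copies in the genome, and their reads are uncertain.

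**Figure D3:**
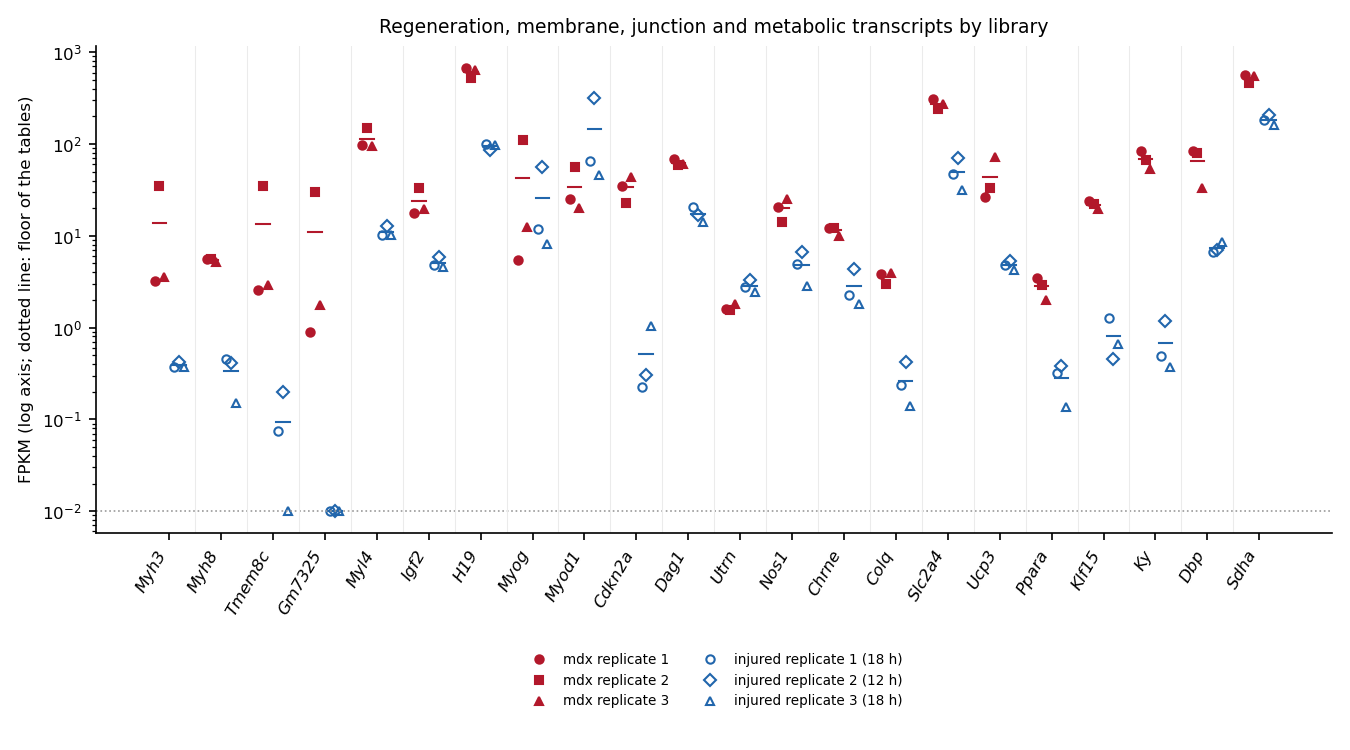
FPKM on a log axis of transcripts of regeneration, the fibre membrane, the neuromuscular junction and metabolism in each of the 6 muscles, with mdx muscles (filled, red) left of injured muscles (open, blue) and a short bar at each group mean; the dotted line is the floor of 0.01 FPKM. Myh3, Tmem8c and Gm7325 are highest in mdx replicate 2 (square), Myh8 is almost level across the mdx muscles, and Myog, Myod1 and Utrn overlap or do not favour mdx muscle.

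Few matrix genes ranked higher in mdx muscle than in injured muscle. No uninjured muscle was compared, so whether matrix genes are raised in mdx muscle was not tested. Of 17 counted collagens, 8 ranked higher in injured muscle (47.1%, against 37.4% of all genes) and 9 overlapped. In mdx muscle 0 ranked higher, against 42.6% of all genes. Col1a1, of the main fibrillar collagen, had 39.6, 58.3 and 36.5 FPKM in mdx muscle and 77.3, 50.8 and 308 FPKM in injured muscle. Col4a1, of the basement membrane collagen that endothelium makes, had 6.19, 5.52 and 15.6 FPKM in mdx muscle and 103, 159 and 78.1 FPKM in injured muscle. For Col1a1, injured replicate 3 was high while the 12-hour muscle lay among the mdx muscles, whereas Col4a1 was highest at 12 hours and did not overlap. Among 24 counted matricellular and elastic fibre genes, 14 ranked higher in injured muscle (58.3%, against 37.4% of all genes). Fn1, fibronectin, had 7.14, 11.8 and 8.64 FPKM in mdx muscle and 61.1, 76.4 and 80.4 FPKM in injured muscle. Postn, periostin, overlapped at 15.5, 21.4 and 8.72 FPKM in mdx muscle and 16.2, 9.27 and 59.4 FPKM in injured muscle. Ogn, a small proteoglycan, was the list's gene ranked higher in mdx muscle, at 6.15, 5.37 and 7.99 FPKM against 3.35, 1.79 and 8.17 FPKM in injured muscle, with overlapping FPKM. Of 15 counted proteases and inhibitors, 10 ranked higher in injured muscle, and Mmp3, stromelysin, had 2.88, 2.82 and 2.74 FPKM in mdx muscle and 51.7, 107 and 32.5 FPKM in injured muscle.

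Of 16 genes of the TGF-beta superfamily, 6 ranked higher in mdx muscle and 8 in injured muscle. These shares were 37.5% and 50%, against 42.6% and 37.4% of all genes. Tgfb1 had 4.07, 13.1 and 5.75 FPKM in mdx muscle and 30.9, 39.4 and 40.5 FPKM in injured muscle. Tgfb3 had 13.4, 12.2 and 15.4 FPKM in mdx muscle and 4.8, 6.51 and 6.36 FPKM in injured muscle. These ligands stood apart in opposite directions. Of 11 EGF receptor ligands and other growth factors, 5 were counted, and Hbegf, a membrane-bound EGF receptor ligand, had 14.1, 11.9 and 12.2 FPKM in mdx muscle and 149, 338 and 162 FPKM in injured muscle.

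Many stromal and vascular markers ranked higher in injured muscle. Of 14 fibro-adipogenic progenitor genes, 8 did so (57.1%, against 37.4% of all genes), 5 overlapped and 1 ranked higher in mdx muscle. The median rank difference of this list was -4.38 points. Pdgfra, the surface receptor of these progenitors, had 0.911, 0.967 and 2.99 FPKM in mdx muscle and 13.6, 14.4 and 17.1 FPKM in injured muscle. The lower mdx values were those of replicates 1 and 2, whose genotype carries PDGFRaEGFP, so a reporter at that gene and the muscle's state cannot be told apart in them. Ly6a, the Sca-1 antigen of these and endothelial cells, had 13.7, 15.4 and 30.9 FPKM in mdx muscle and 312, 357 and 324 FPKM in injured muscle. Of 15 endothelial genes, 11 ranked higher in injured muscle (73.3%, against 37.4% of all genes), with a median rank difference of -18 points. Pecam1, the CD31 antigen, had 4.6, 3.83 and 10.2 FPKM in mdx muscle and 68.4, 105 and 63.8 FPKM in injured muscle. Cldn5, a tight junction protein, had 4.08, 2.85 and 11.4 FPKM in mdx muscle and 80.3, 153 and 74 FPKM in injured muscle. Replicate 3 was the highest mdx muscle and the 12-hour muscle the highest injured one for both. Of 5 counted endothelial activation genes, 4 ranked higher in injured muscle, and Angpt2, a destabiliser of vessels, had 0.253, 0.267 and 0.551 FPKM in mdx muscle and 7.66, 13.2 and 6.45 FPKM in injured muscle.

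Other cell types gave mixed pictures. Smooth muscle and pericyte genes counted 3 higher in mdx muscle, 4 higher in injured muscle and 5 overlapping. The shares called were 25% and 33.3%, against 42.6% and 37.4% of all genes. Abcc9, a potassium channel subunit of pericytes and fibres, had 48.9, 35.7 and 34.7 FPKM in mdx muscle and 8.54, 12.3 and 8.49 FPKM in injured muscle. Mcam, the CD146 antigen, had 4.18, 3.08 and 4.42 FPKM in mdx muscle and 34.9, 66.7 and 27.1 FPKM in injured muscle. Of 9 Schwann cell genes, 5 were counted and 3 ranked higher in injured muscle (60%, against 37.4% of all genes, in a short list). All 3 counted tendon genes overlapped. So did all 4 counted haemoglobin genes, whose near-identical copies may share reads, and Hba-a1 had 512, 40.6 and 221 FPKM in mdx muscle and 149, 172 and 1447 FPKM in injured muscle. Of 8 counted adipocyte genes, 5 ranked higher in mdx muscle (62.5%, against 42.6% of all genes) and 2 in injured muscle (25%, against 37.4%). Adipoq, the fat cell hormone adiponectin, overlapped in FPKM at 1.7, 1.5 and 2.73 FPKM in mdx muscle and 0.8, 0.131 and 1.63 FPKM in injured muscle, while Fabp4, which endothelium and macrophages also express, had 79.8, 70.4 and 235 FPKM in mdx muscle and 953, 996 and 1050.3 FPKM in injured muscle. Car3, a carbonic anhydrase of fat and slow fibres, had the list's largest FPKM ratio in favour of mdx muscle, at 4335, 2645 and 3533 FPKM against 470.1, 508 and 507 FPKM in injured muscle, while its rank difference was 0.776 points and Plin4, a lipid droplet protein, had the list's largest at 18.3 points.

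Of 13 genes of muscle wasting, 6 ranked higher in mdx muscle and 5 in injured muscle (3 in PLX73086-fed mice). These shares of 46.2% and 38.5% were near the 42.6% and 37.4% of all genes. Trim63, the ubiquitin ligase MuRF1 of the thick filament, had 133, 137 and 211 FPKM in mdx muscle and 1867, 1439.9 and 1609 FPKM in injured muscle. Fbxo32, the companion ligase atrogin-1, overlapped at 39.7, 40.2 and 75.6 FPKM in mdx muscle and 80.9, 37 and 27.5 FPKM in injured muscle. Mstn, the growth inhibitor myostatin, had 9.55, 5.49 and 4.59 FPKM in mdx muscle and 2.88, 3.9 and 2.53 FPKM in injured muscle. Of the ligases Trim63 differed and Fbxo32 overlapped, and Mstn overlapped in PLX73086-fed mice. Of 12 clock genes, 6 ranked higher in mdx muscle (50%, against 42.6% of all genes) and 2 in injured muscle (16.7%, against 37.4%). Dbp, an output of the clock that peaks at one time of day, had 84.5, 80.2 and 33.4 FPKM in mdx muscle and 6.58, 7 and 8.55 FPKM in injured muscle. Arntl, which runs in antiphase to Dbp, had 4.65, 3.26 and 9.1 FPKM in mdx muscle and 29.9, 38 and 20.3 FPKM in injured muscle. The labels do not state the hour of day at which muscles were taken, and mdx replicate 3 lay apart from replicates 1 and 2 for both genes. Arntl overlapped in PLX73086-fed mice.

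**Figure D4:**
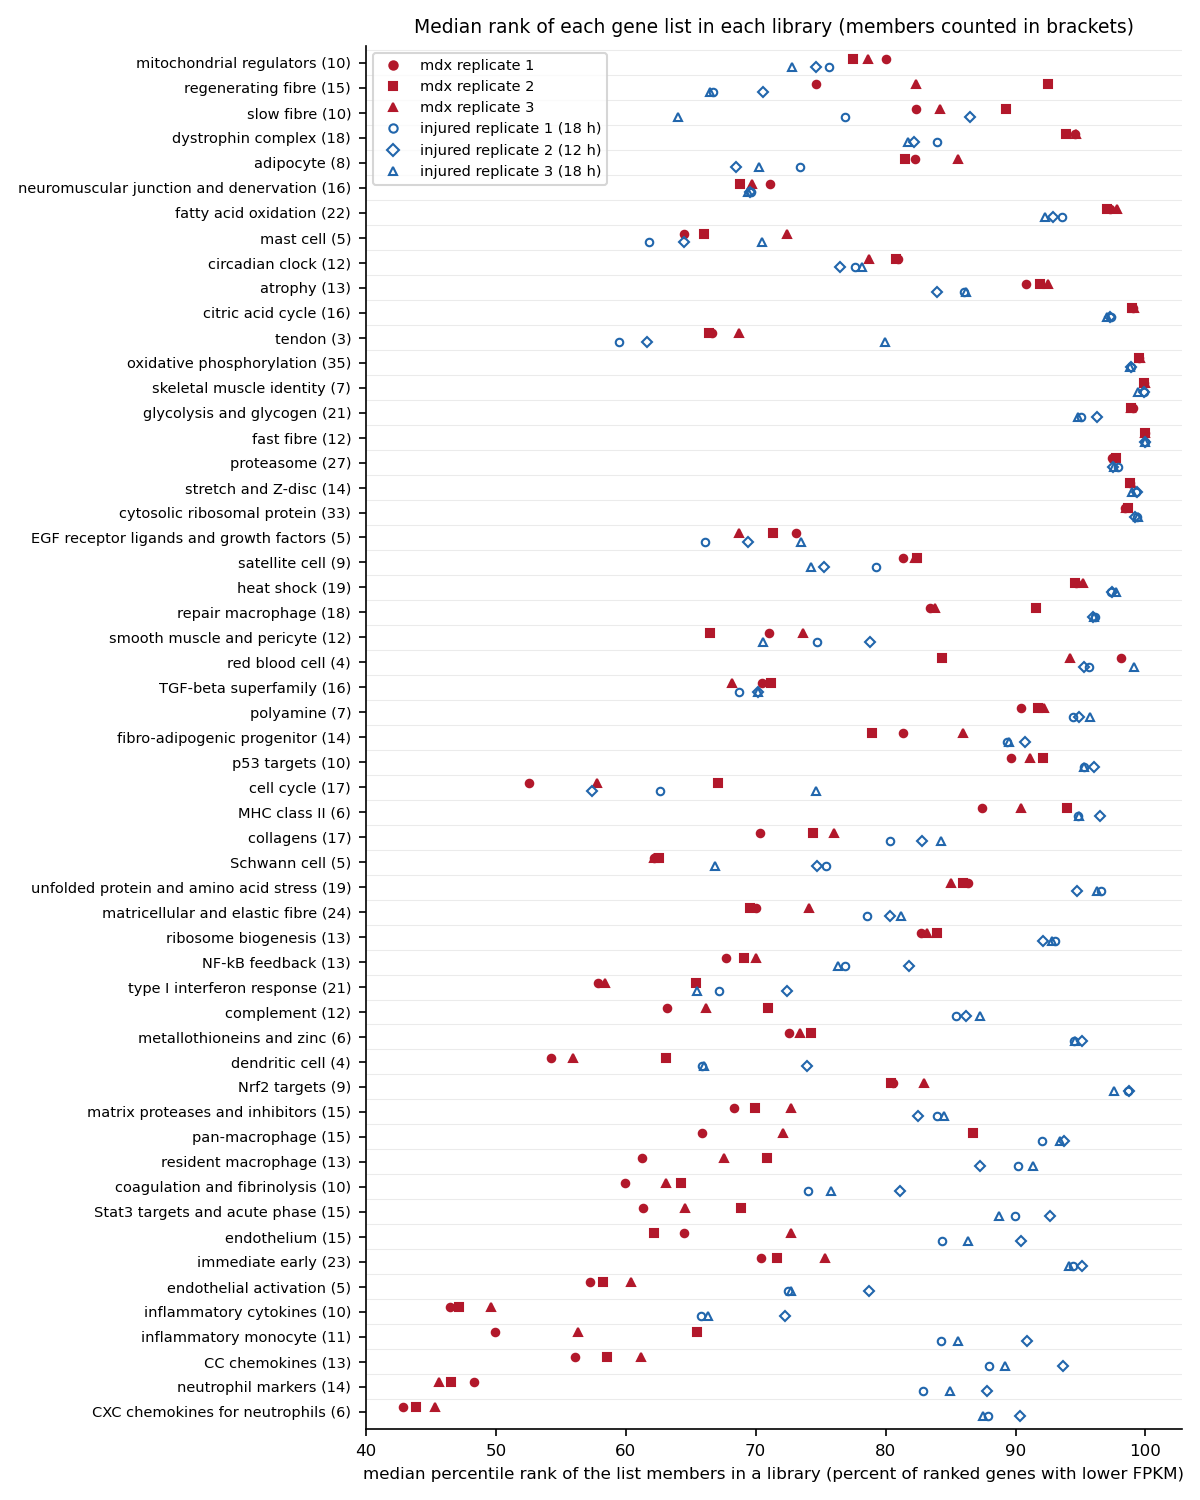
Median percentile rank of the counted members of each gene list (number in brackets) in each muscle, with mdx muscles (filled, red) drawn above injured muscles (open, blue) in each row; rows are ordered by the median difference in rank. The symbols of the groups are farthest apart for chemokines, neutrophil markers and monocyte genes at the bottom, nearly coincide for contractile, proteasome and ribosomal protein genes, and mdx replicate 2 (square) lies toward the injured muscles for pan-macrophage and repair macrophage genes.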

How the data were processed

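RNA from whole TA muscle was sequenced as 43-base read pairs from a stranded mRNA kit, per the labels' protocols. The authors deposited one FPKM table per experiment. The submitters' processing notes name bcl2fastq, Bowtie, STAR and Cufflinks and the build mm10, with no role or version. The depth in reads is unknown, and only relative depth could be read from the low values. Values that the deposited tables mark as failed were read as missing, and 27 entries of the injured table with date names were not used. Ranks, gaps and log2 ratios (pseudocount 1 FPKM) were computed with Python 3.11.15, numpy 2.4.6 and pandas 2.3.3 and checked on simulated data. A rank is the percent of ranked genes with a strictly lower FPKM, so genes at the floor of 0.01 FPKM rank 0. No test was run across tables normalised separately. The members and the 58 gene lists (872 entries) were chosen with earlier results of these data known. Genes named are the 12 widest gaps each way among genes averaging 5 FPKM or more on the higher side (predicted, small and immunoglobulin genes left out), up to 4 members each way of a list, a fixed set of single genes, and further list members as examples. Some genes this rule names are not reported here. The motif windows come from RefSeq promoters. Alternatives changed the filter, the ties, the ranked genes, the scale, the gap, the diet group and the libraries.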

Additional observations from a re-analysis of the deposited data

How the results depend on the processing

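Requiring a gap of at least 10 percentile points left 966 genes higher in mdx muscle and 938 higher in injured muscle. Requiring at least a 4-fold difference of mean FPKM + 1, a rule chosen after seeing the data, left 216 and 1360, and the shares of summed FPKM gave 3208 and 5426. Under the other settings the counts stayed within 1.5 times the 4657 and 4079 reported: 5774 and 4988 of 23206 genes with no filter, 3254 and 2909 of 7369 genes averaging 5 FPKM or more, 4691 and 4014 with ranks over counted genes only, 4663 and 4079 with averaged ties, 4586 and 4034 in PLX73086-fed mice, 3905 and 3269 with both diets as 6 against 6 libraries, and 4802 and 4191 with X and Y genes kept. Leaving out each library in turn gave 4667 to 4886 and 4122 to 4360, and fewer libraries make non-overlap easier by construction. None of the 39 named genes followed through these settings that had been called changed direction, but other genes described above did in PLX73086-fed mice: Maf, Dysf, Cav3 and Des. Of 55 lists with a value, the median rank difference of 4 changed sign when 1 library was left out: cell cycle (-9.09 to 0.172 points), proteasome (-0.0531 to 0.0984), red blood cell (-7.43 to 0.463) and smooth muscle and pericyte (-5.67 to 1.29). List medians moved by more than their spread most often with ranks over counted genes only (41 of 55) and in PLX73086-fed mice (34 of 55); the cause was not tested. The medians of mast cell, tendon and circadian clock genes were above 0 in rank (3.61, 1.61 and 2.59 points) and below 0 in log2 ratio (-0.33, -0.43 and -0.17). No paired analysis was possible because the mdx and injured muscles come from different mice and the labels give them no shared replicate numbers. Low genes are the limit of depth: 7901 to 8777 of the ranked genes were at the floor in a library.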
